A study of Homo sapiens with 12 samples.

Results

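The genes described here are 10 transcripts that are commonly read as a measure of RAS-ERK signaling output, chosen by symbol from the 59276 genes of the deposited table. They are DUSP4, DUSP5, DUSP6, SPRY2, SPRY4, SPRED1, SPRED2, ETV4, ETV5 and PHLDA1, and each of the 10 was found once in the table. RNA was sequenced from JJN3, a human multiple myeloma cell line, in 4 groups of 3 replicates. JJN3 cells without guide vectors received DMSO, the vehicle, or 10 µM MS023, an inhibitor of the type I protein arginine methyltransferases, for 3 days. The other groups were JJN3 lines with lentiviral Cas9 and a doxycycline-inducible guide RNA, and both received doxycycline for 3 days. The guide was iPRMT1_1, which targets PRMT1 (PRMT1-KO), or isgCtrl, its control. These guide lines had been sorted for the mCherry of the Cas9 vector and selected with puromycin, and no single-cell cloning is described. The labels do not say whether replicates were separate cultures, so p-values measure the spread between these samples, which may be technical.

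ERK is the last kinase of the RAS-RAF-MEK-ERK cascade, which carries growth factor signals to the nucleus. Active ERK switches on genes for proteins that shut the same cascade down, so their transcripts rise and fall with pathway output in many tumor cells. DUSP4 and DUSP5 encode phosphatases that act on MAP kinases in the nucleus, DUSP5 with a marked preference for ERK, and DUSP6 encodes an ERK phosphatase of the cytoplasm. SPRY2 and SPRY4 are Sprouty proteins, which restrain receptor signaling at the level of RAS and RAF. SPRED1 and SPRED2 are related proteins, and SPRED1 brings the RAS GTPase-activating protein neurofibromin to the membrane. ETV4 and ETV5 are ETS transcription factors of the PEA3 subfamily, and PHLDA1 is a protein with a pleckstrin homology-like domain. RAS mutations are frequent in multiple myeloma, which makes these transcripts of interest in this disease.

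Levels are given as log2(TPM+1), the unit of the deposited table, or as TPM, a transcript abundance corrected for length and scaled to a fixed total per sample. PRMT1 mRNA, the target of the guide, was at 9.76, 9.76 and 9.73 in the isgCtrl samples and at 8.24, 8.28 and 8.24 in the PRMT1-KO samples on the log2(TPM+1) scale. All PRMT1-KO samples were lower, at a mean of 304 TPM against 859.8 TPM. These values measure mRNA only, and for the protein the study shows the knockout by western blot. Of 8 plasma cell markers, 8 were above 1 TPM in every DMSO and MS023 sample, 6 in every isgCtrl sample and 5 in every PRMT1-KO sample. Their summed level was 716 to 755 TPM in DMSO and 1153 to 1197 TPM with MS023. In isgCtrl it was 653 to 667 TPM and in PRMT1-KO 627 to 631 TPM. Between DMSO and isgCtrl, MZB1 (105 and 2.01 TPM), SLAMF7 (9.32 and 0.369 TPM) and CD38 (4.96 and 1.325 TPM) were lower in isgCtrl. IRF4 (95.1 and 157 TPM) was higher. Each was called by limma with the thresholds used for the feedback genes. SDC1, TNFRSF17, PRDM1 and XBP1 were not called between DMSO and isgCtrl. With MS023 mean TPM was above that in DMSO for XBP1 (496 and 224), SLAMF7 (52.2 and 9.32) and MZB1 (177.5 and 105). SDC1 (133 and 102), PRDM1 (35.65 and 23.2) and IRF4 (109.6 and 95.1) were also higher. CD38 (2.24 and 4.96) and TNFRSF17 (165.7 and 170.3) were lower. The summed level of 4 B cell markers was at most 0.307 TPM and that of 4 T cell markers at most 0.575 TPM, while 4 myeloid markers summed to at most 3.005 TPM with MS023 and 0.906 TPM elsewhere. Transcripts of mitochondrial genes summed to 49120 to 50020 TPM in DMSO, 56210 to 58280 with MS023, and were lower in the guide lines, at 42250 to 44250 (isgCtrl) and 39590 to 41540 (PRMT1-KO). Histone genes summed to 315 to 356 TPM in DMSO and 578 to 639 TPM with MS023, 258.8 to 266.2 TPM in isgCtrl and 279.5 to 317.9 TPM in PRMT1-KO. Their part in the results was not tested.

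With MS023, 4 of 9 tested ERK feedback genes were called higher and 2 lower, beside 11.6% and 19.3% of all genes tested. Under median-ratio scaling of the samples 4 were higher and 0 lower, beside 15.5% and 14.6% of all genes. In PRMT1-KO cells no member passed the test, as few genes did there at all (0.781%). DUSP5 stood out, since it was 15.7 ± 1.60 TPM in DMSO and 182 ± 10.5 TPM with MS023 (SD, n = 3 each). DUSP4, SPRED1 and PHLDA1 rose with MS023 to 2.68 to 2.77 times their mean TPM in DMSO. SPRY2 and ETV4 fell to 64.4% and 63.4% of it. SPRY4, SPRED2 and DUSP6 did not pass the test. ETV5 had a mean log2(TPM+1) under 1 in all groups, so it was not tested. In bulk RNA, fewer cells that express a gene and less of its RNA per cell cannot be told apart. The plot of single samples shows these levels for every gene.

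**Figure D1:**
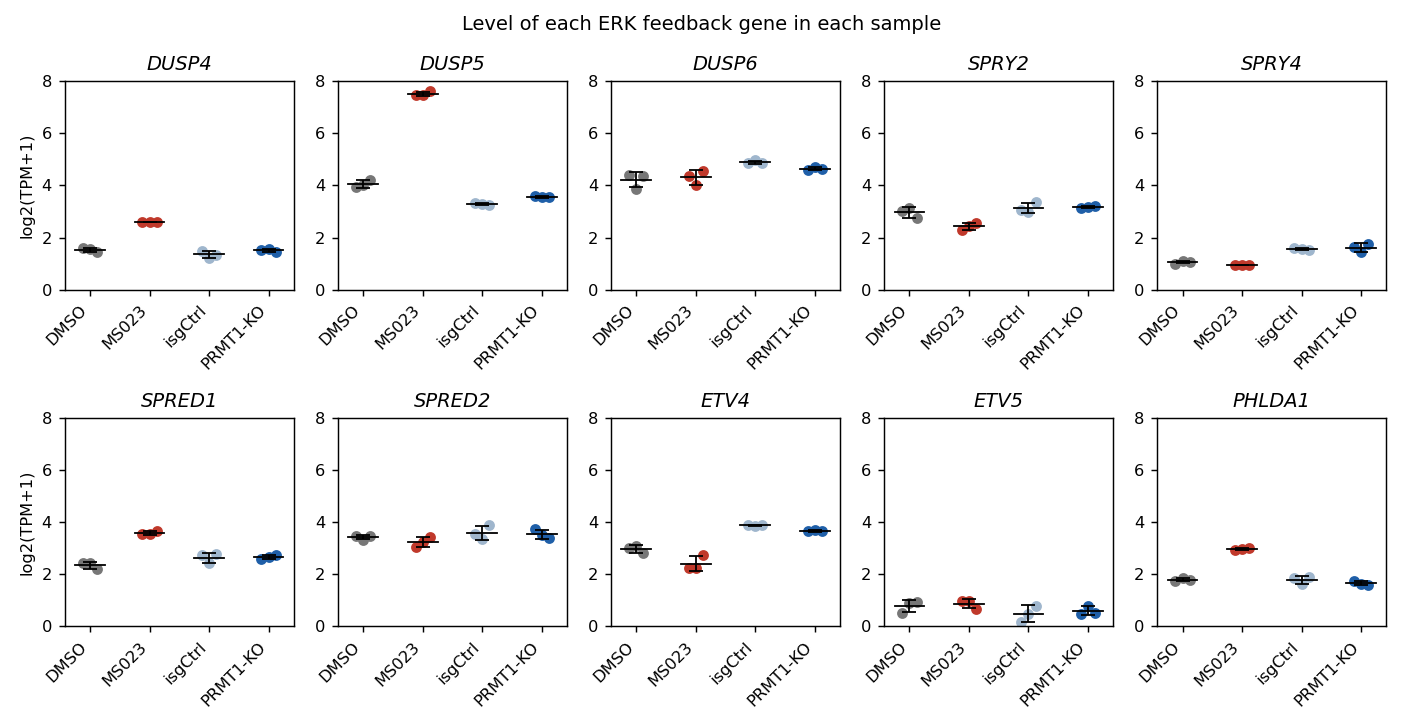
Level of the 10 ERK feedback genes in log2(TPM+1) (y axis) in the 3 samples of each of the 4 groups (x axis). Points are samples and the bars are the mean and SD of 3 replicates. DUSP5 with MS023 was at 7.45 to 7.60 against 3.94 to 4.21 in DMSO, while SPRED2 and ETV5 overlapped between groups.

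Promoter sequences in the RefSeq table of GRCh38.p14 were found for 6 of the 10 genes. DUSP4, DUSP5, ETV4 and ETV5 had no entry. Shown here are the 250 bases before the start of PHLDA1 and SPRED1, which rose together with MS023, of SPRY2, which fell, and of DUSP6, which did not pass the test. The windows are chr12:76031777-76032026 on the minus strand for PHLDA1, chr15:38252586-38252835 on the plus strand for SPRED1, chr13:80341127-80341376 on the minus strand for SPRY2 (the first of 3 annotated starts) and chr12:89352502-89352751 on the minus strand for DUSP6. Each is written 5′ to 3′ toward the start, and capitals mark a match to the motifs named after the sequences.
PHLDA1: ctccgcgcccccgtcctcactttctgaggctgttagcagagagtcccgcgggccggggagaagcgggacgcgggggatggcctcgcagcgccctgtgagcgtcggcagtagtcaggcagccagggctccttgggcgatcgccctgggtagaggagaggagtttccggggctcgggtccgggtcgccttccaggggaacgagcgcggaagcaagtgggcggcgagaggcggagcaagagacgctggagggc
SPRED1: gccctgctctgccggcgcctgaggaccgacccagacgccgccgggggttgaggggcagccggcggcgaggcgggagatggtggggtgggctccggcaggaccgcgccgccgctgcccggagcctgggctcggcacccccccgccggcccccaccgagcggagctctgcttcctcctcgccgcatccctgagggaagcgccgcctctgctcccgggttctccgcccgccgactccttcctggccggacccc
SPRY2: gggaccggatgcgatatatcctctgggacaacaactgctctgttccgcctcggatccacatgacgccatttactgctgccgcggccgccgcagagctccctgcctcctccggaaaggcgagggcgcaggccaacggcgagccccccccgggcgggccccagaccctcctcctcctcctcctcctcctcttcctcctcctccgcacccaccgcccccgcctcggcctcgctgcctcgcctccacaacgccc
DUSP6: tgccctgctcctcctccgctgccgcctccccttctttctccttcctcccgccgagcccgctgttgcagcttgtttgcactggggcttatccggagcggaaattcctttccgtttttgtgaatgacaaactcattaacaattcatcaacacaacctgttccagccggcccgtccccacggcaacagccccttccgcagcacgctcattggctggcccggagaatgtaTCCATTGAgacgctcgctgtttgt

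The motifs searched on both strands were the octamers of the repressor CIC (TGAATGAA, TGAATGGA, TCAATGAA and TCAATGGA), the AP-1 site (TGACTCA and TGAGTCA), the cyclic AMP response element (TGACGTCA), an ETS site (CCGGAAG) and the CArG box of serum response factor. Of all 35116 windows of this length, 3.18% held a CIC octamer, 4.20% an AP-1 site, 1.65% the cyclic AMP response element, 8.52% the ETS site and 1.16% a CArG box. Among the 9 windows of the 6 genes a single match was found, a CIC octamer in DUSP6 that begins 24 bases before the start and overlaps no other motif. It reads TCAATGGA on the opposite strand. CIC is a repressor that ERK signaling relieves, as background. The windows of PHLDA1, SPRED1 and SPRY2 held none of these letters, and those of DUSP4 and DUSP5, which also rose, were not searched.

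The first question was how the feedback genes respond to 3 days of MS023. The limma test covered genes whose group mean exceeded 1 on the log2(TPM+1) scale in at least 1 of the groups compared. A gene was called where its Benjamini-Hochberg adjusted p was under 0.05 and its log2 fold change passed 0.48 in either direction. The members were chosen with earlier results of these data known, so the shares given here describe them and do not test them. Of the 9 members tested, 6 were called (66.7%), against 30.9% of the 12903 genes tested. Higher with MS023 were 4, against 11.6% of all genes, and lower were 2, against 19.3%. All values of the MS023 and DMSO samples lay apart for 7 of the 9 members, and for 59.5% of all genes. The median log2 fold change was 0.10 over the 9 members and -0.11 over all genes. A scaling of the samples by median ratios moved the median of all genes by 0.11. Under that scaling 4 members were called higher and 0 lower, beside 15.5% and 14.6% of all genes, because SPRY2 (-0.43) and ETV4 (-0.47) then lay under the fold change threshold.

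DUSP5, on chr10:110497907-110511533, was at 3.94, 4.02 and 4.21 in the DMSO samples and at 7.45, 7.48 and 7.60 in the MS023 samples on the log2(TPM+1) scale. Every MS023 sample was far above every DMSO sample. The log2 fold change was 3.46 (standard error 0.09, Benjamini-Hochberg adjusted p = 4.5e-05 in limma), and over all 14 alternative fits it ran from 3.40 to 3.58. In mean TPM this was a ratio of 11.6. DUSP5P1, a processed pseudogene of DUSP5, was at most 1.47 TPM in any sample, and DUSP5P2 was listed at 0 throughout.

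DUSP4, the other nuclear phosphatase, was at 1.58, 1.56 and 1.44 in DMSO and at 2.60, 2.61 and 2.59 with MS023. The groups lay apart, and the MS023 samples were nearly equal. Its log2 fold change was 1.07 (standard error 0.07, adjusted p = 1.4e-04 in limma), from 1.89 to 5.06 mean TPM. Levels of DUSP4 per length were thus far below those of DUSP5 in both groups. DUSP6, on chr12:89347235-89352501, was at 4.40, 3.88 and 4.35 in DMSO and at 4.35, 4.01 and 4.57 with MS023. These samples overlapped, and the groups spread more widely than for the other phosphatases. The log2 fold change of DUSP6 was 0.10 with a 95% interval of -0.38 to 0.58 (adjusted p = 0.700 in limma), which is an interval that reaches past the fold change threshold upward. Without DMSO replicate 2 its sign turned, to -0.067, and without MS023 replicate 3 it was -0.031.

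SPRED1 was at 2.44, 2.42 and 2.19 in DMSO and at 3.53, 3.55 and 3.68 with MS023. The groups did not overlap. The log2 fold change was 1.24 (standard error 0.09, adjusted p = 2.6e-04 in limma), from 4.11 to 11.0 mean TPM. SPRED2, its closest relative among the members, was at 3.47, 3.33 and 3.46 in DMSO and at 3.05, 3.25 and 3.42 with MS023, and the groups overlapped. Its log2 fold change was -0.18 with a 95% interval of -0.45 to 0.08 (adjusted p = 0.210 in limma). The mean TPM of SPRED1 was above that of SPRED2 with MS023 and below it in the other 3 groups.

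PHLDA1 was at 1.73, 1.87 and 1.79 in DMSO and at 2.92, 2.97 and 3.02 with MS023, with no overlap. The log2 fold change was 1.18 (standard error 0.07, adjusted p = 1.2e-04 in limma), from 2.47 to 6.84 mean TPM. With a pseudocount of 0.1 in place of 1, which compresses low genes less, the log2 fold changes were 1.38 for DUSP4, 1.40 for SPRED1, 1.43 for PHLDA1 and 3.53 for DUSP5.

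SPRY2 was at 3.02, 3.12 and 2.75 in DMSO and at 2.30, 2.44 and 2.55 with MS023, and each MS023 sample lay below each DMSO sample. Its log2 fold change was -0.53 (standard error 0.12, adjusted p = 0.0133 in limma). The call was close to the fold change threshold and was lost without DMSO replicate 2 (-0.45) or MS023 replicate 1 (-0.47). SPRY4 was at 1.01, 1.09 and 1.07 in DMSO and at 0.97, 0.96 and 0.97 with MS023. All MS023 samples were lower, yet the log2 fold change was only -0.09 with a 95% interval of -0.23 to 0.05 (adjusted p = 0.253 in limma). SPRY4 entered the test through its mean in DMSO.

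ETV4 was at 3.02, 3.08 and 2.81 in DMSO and at 2.23, 2.24 and 2.73 with MS023. The groups did not overlap, but MS023 replicate 3 stood near the lowest DMSO sample. The log2 fold change was -0.57 (standard error 0.16, adjusted p = 0.0271 in limma). With the replicate number as a block the adjusted p was 0.0673. Without DMSO replicate 1, DMSO replicate 2, MS023 replicate 1 or MS023 replicate 2 it was 0.0786 to 0.0812. Levels of ETV5 were 0.53, 0.90 and 0.92 in DMSO and 0.96, 0.99 and 0.66 with MS023, under 1 TPM on average in both groups and overlapping.

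**Figure D2:**
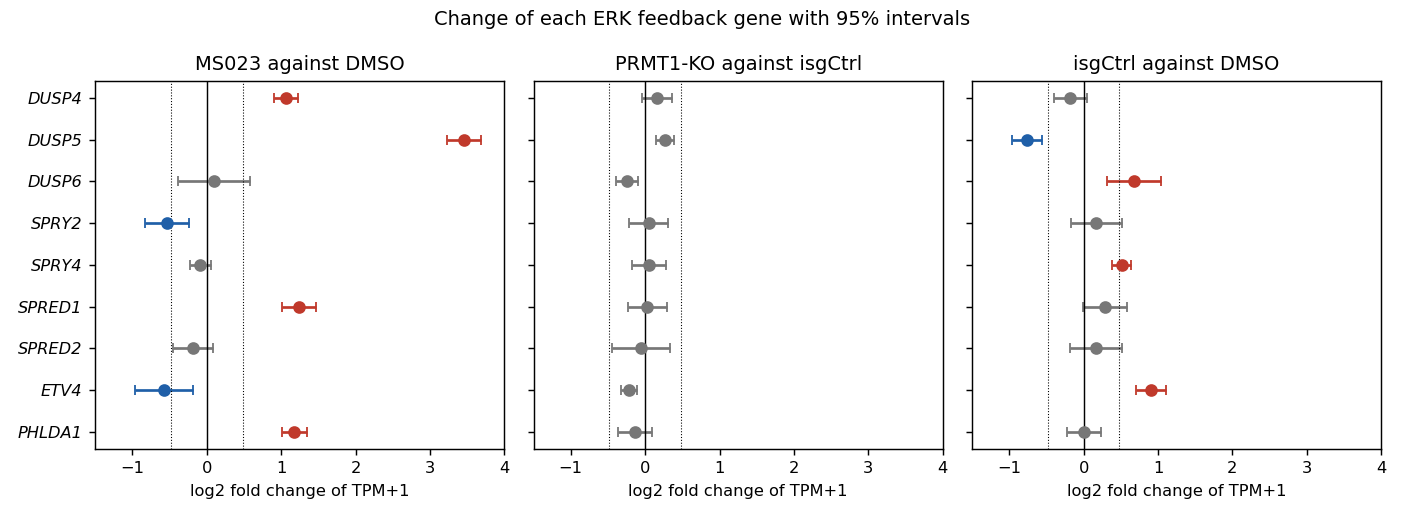
Log2 fold change of TPM+1 (x axis) of the 9 tested ERK feedback genes (y axis) in 3 comparisons, with 95% intervals from limma and dotted lines at the fold change threshold of 0.48. Red points were called higher, blue points lower and grey points were not called. With MS023 4 genes were higher and 2 lower, in PRMT1-KO 0 were called, and in isgCtrl against DMSO 3 were higher and 1 lower. Of all genes tested, 11.6% were higher and 19.3% lower with MS023, and 0.781% were called in PRMT1-KO. In isgCtrl against DMSO 7.23% of all genes were higher and 6.7% lower.

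Since DUSP5 rose so much more than the others, the 10 genes were also summed. DUSP5 made up 20.8% to 25.5% of their summed TPM in the DMSO samples and 73.9% to 75.95% in the MS023 samples. The sum was 64.0 to 69.0 TPM in DMSO and 232 to 262 TPM with MS023. Without DUSP5 it was 48.9 to 54.6 and 56.3 to 68.3 TPM, and these ranges did not overlap. In isgCtrl the sum without DUSP5 was 69.6 to 77.55 TPM and in PRMT1-KO it was 65.2 to 67.4 TPM, and both means (73.1 and 66.3 TPM) were above that with MS023 (61.0 TPM). DUSP5 contributed less there, 9.87% to 11.3% of the sum (isgCtrl) and 13.7% to 14.3% (PRMT1-KO).

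The second question was how the feedback genes respond to the guide that targets PRMT1. In PRMT1-KO against isgCtrl, 0 of 9 members were called, against 0.781% of the 12285 genes tested. DUSP5, ETV4 and DUSP6 were the 3 whose samples did not overlap (33.3%, against 26.7% of all genes). The same 3 had an unadjusted p under 0.05 in limma. The share of all genes at that level was not computed, so this describes them only. The median log2 fold change was 0.03 over the members and -0.04 over all genes. DUSP5 was at 3.34, 3.28 and 3.25 in isgCtrl and at 3.59, 3.54 and 3.54 in PRMT1-KO. The difference was small against that with MS023, at a log2 fold change of 0.27 with a 95% interval of 0.14 to 0.39 (limma with Benjamini-Hochberg adjustment, adjusted p = 0.0820).

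ETV4 was at 3.88, 3.86 and 3.90 in isgCtrl and at 3.65, 3.69 and 3.65 in PRMT1-KO, and its log2 fold change was -0.22 with a 95% interval of -0.33 to -0.10 (adjusted p = 0.0990 in limma). DUSP6 was at 4.85, 4.96 and 4.85 in isgCtrl and at 4.59, 4.72 and 4.62 in PRMT1-KO, with a log2 fold change of -0.25 and a 95% interval of -0.39 to -0.10 (adjusted p = 0.127 in limma). For both genes each PRMT1-KO sample lay below each isgCtrl sample, by less than the fold change threshold. The other 6 members overlapped between the groups. Their log2 fold changes ran from -0.14 for PHLDA1 to 0.16 for DUSP4, and the widest 95% interval was that of SPRED2, from -0.45 to 0.33. The intervals of all 9 members thus lay inside the fold change threshold on both sides.

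Among these 6, DUSP4 was at 1.50, 1.22 and 1.34 in isgCtrl and at 1.52, 1.56 and 1.45 in PRMT1-KO. PHLDA1 was at 1.86, 1.62 and 1.91 in isgCtrl and at 1.74, 1.62 and 1.60 in PRMT1-KO. Both stayed near their levels in DMSO and below all MS023 samples. SPRED1 was at 2.72, 2.42 and 2.76 in isgCtrl and at 2.60, 2.64 and 2.75 in PRMT1-KO, whereas no MS023 sample was under 3.53. SPRED2 was at 3.56, 3.33 and 3.88 in isgCtrl and at 3.72, 3.50 and 3.38 in PRMT1-KO, so these overlapped widely. The Sprouty genes were likewise mixed between the guide lines. SPRY2 was at 3.07, 2.97 and 3.36 in isgCtrl and at 3.15, 3.18 and 3.23 in PRMT1-KO, and SPRY4 was at 1.64, 1.44 and 1.77 in PRMT1-KO around its isgCtrl mean of 1.57. ETV5, the untested member, was at 0.16, 0.49 and 0.80 in isgCtrl and at 0.50, 0.80 and 0.50 in PRMT1-KO.

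The effects of MS023 and of PRMT1-KO were compared directly in a fit of all 12 samples. Of 9 members, 5 differed at an adjusted p under 0.05 and a difference above 0.48, against 24.4% of 13256 genes. The effect of MS023 was the more positive for 4 members, against 9.69% of all genes, and the more negative for 1, against 14.7%. Under median-ratio scaling these counts were also 4 and 1, beside 1629 and 1590 of the 13256 genes. The difference was 3.19 for DUSP5 (limma with Benjamini-Hochberg adjustment, adjusted p = 1.4e-07), 1.32 for PHLDA1, 1.21 for SPRED1 and 0.91 for DUSP4, on the log2 scale with adjusted p of at most 1.6e-04. For SPRY2 it was -0.58 (adjusted p = 0.0228 in limma). Leaving out DMSO replicate 1 or 2, MS023 replicate 1, or isgCtrl replicate 1 or 2 gave SPRY2 an adjusted p of 0.0503 to 0.0534. For ETV4 the difference was -0.35 with a 95% interval of -0.74 to 0.04, and for DUSP6 it was 0.34 with an interval of -0.15 to 0.84. Without MS023 replicate 3 the ETV4 difference was -0.52 (adjusted p = 0.00465 in limma).

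The control groups themselves were not alike. In isgCtrl against DMSO 4 of 9 members were called (44.4%), against 13.9% of the 12661 genes tested. Higher in isgCtrl were 3, against 7.23% of all genes, and lower was 1, against 6.70%. Under median-ratio scaling 2 were higher and 1 lower, beside 5.30% and 7.44% of all genes. Samples did not overlap for the same 4 genes, as for 51.7% of all genes. These groups differ in Cas9, guide vector, selection, doxycycline and vehicle at once, which cannot be told apart. The comparison shares the DMSO samples with that of MS023 and the isgCtrl samples with that of PRMT1-KO.

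ETV4 differed most, with a log2 fold change of 0.91 (standard error 0.08, Benjamini-Hochberg adjusted p = 0.00140 in limma), and its mean TPM in isgCtrl was 200.2% of that in DMSO. DUSP6 was higher by 0.68 (standard error 0.15, adjusted p = 0.0178 in limma). Leaving out any isgCtrl replicate gave DUSP6 an adjusted p of 0.0503 to 0.0587, and the replicate block gave 0.0520. SPRY4 was at 1.59, 1.57 and 1.54 in isgCtrl, higher than in DMSO by 0.51 (adjusted p = 0.00195 in limma), and by 0.47 under median-ratio scaling, which is under the threshold. SPRY4-AS1, an antisense transcript that overlaps SPRY4, was at 0.177 TPM in DMSO and 1.11 TPM in isgCtrl. SPRY4 itself was at 1.08 and 1.96 mean TPM. Whether antisense reads were part of the SPRY4 level was not tested. DUSP5 went the other way, lower in isgCtrl by 0.77 on the log2 scale (-0.77, standard error 0.08, adjusted p = 0.00228 in limma). For SPRED1 the difference was 0.28, for SPRY2 0.17, for SPRED2 0.17, for DUSP4 -0.18 and for PHLDA1 0.00, and none of these was called.

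Put in order over the 4 groups, the mean log2(TPM+1) of DUSP5 went from isgCtrl (3.29) over PRMT1-KO (3.56) and DMSO (4.06) to MS023 (7.51), and no neighbors in this order overlapped. ETV4 ran the opposite way, from MS023 (2.40) over DMSO (2.97) and PRMT1-KO (3.66) to isgCtrl (3.88), also with no overlap between neighbors. DUSP6 was lowest in DMSO (4.21) and MS023 (4.31), which overlapped, and higher in PRMT1-KO (4.64) and isgCtrl (4.89). SPRY4 was lowest with MS023 (0.97), then DMSO (1.06), with isgCtrl (1.57) and PRMT1-KO (1.62) overlapping above them. DUSP4, SPRED1 and PHLDA1 shared a simpler order, in which MS023 was the highest group and the other 3 overlapped as neighbors. For SPRY2 MS023 was the lowest group and the other 3 overlapped as neighbors. SPRED2 and ETV5 overlapped at every step.

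For the 3 members with the highest mean level, the genes with the most similar profile over the 12 samples were found by the root mean square difference of centered log2(TPM+1) values. CCND2, which encodes cyclin D2, was nearest to DUSP5 (0.191), followed by the chemokines CXCL9 (0.243) and CCL3L3 (0.256), the last of which has near-identical copies. CCND2 went from 6.01 in DMSO to 9.72 with MS023 and was at 5.11 in isgCtrl and 5.37 in PRMT1-KO. BRF2 (0.0963), SARM1 (0.108) and ENOX2 (0.113) were nearest to DUSP6, and PCNX3 (0.103), ETFDH (0.105) and RRP1 (0.111) to SPRED2. Samples of a group share their treatment, so the 12 samples are not independent points.

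The members were then set beside 100 other genes of the pathway in 5 lists, also chosen with earlier results of these data known. With MS023, 74 of them were tested and 23 were called (31.1%), which is near the 30.9% of all genes, with 13 higher and 10 lower. Under median-ratio scaling 17 were higher and 5 lower (23% and 6.76%), beside 15.5% and 14.6% of all genes. Among 13 relatives of the members, 9 were tested, 2 rose and 2 fell, beside 11.6% and 19.3% of all genes. The 4 called were 44.4% of those tested, against 30.9% of all genes. DUSP10, a phosphatase of JNK and p38, rose by 1.22 (adjusted p = 1.6e-04 in limma), from 3.80 ± 0.28 to 10.2 ± 0.68 TPM (SD, n = 3 each), and PHLDA2 rose by 0.86. SPRY1, the Sprouty relative of SPRY2, changed by -0.60 (adjusted p = 0.00632 in limma), and DUSP7, another cytoplasmic ERK phosphatase, by -0.51. With median-ratio scaling DUSP7 lay under the fold change threshold (-0.40) and DUSP2, a nuclear phosphatase, was called higher (0.59). That gave 3 higher and 1 lower, beside 15.5% and 14.6% of all genes.

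The list of ERK substrates and other output genes had 8 higher and 1 lower of 23 tested, beside 11.6% and 19.3% of all genes, with a median log2 fold change of 0.29 against -0.11 over all genes. One of the higher genes, RPS6KA2, passed the filter only through its MS023 mean. Under median-ratio scaling 9 were higher and 0 lower, beside 15.5% and 14.6% of all genes. RPS6KA3 (-0.46) was lost there and MKNK1 (0.52) was added. The largest of these changes were of KLF6 (1.50), CCND1 (1.32), FOS (0.99), JUNB (0.74) and MCL1 (0.73), with adjusted p of at most 0.00249 in limma. KLF6, FOS and JUNB are immediate early transcription factors, CCND1 encodes cyclin D1 and MCL1 an inhibitor of apoptosis. EGR1, an early gene often read for ERK activity, was at 2.10 ± 0.12 TPM in DMSO and 2.13 ± 0.04 TPM with MS023 (SD, n = 3 each). It is named here after its values were seen.

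Of the cascade from RAS to ERK with some of its scaffolds and regulators, 17 genes were tested and 2 were called (11.8%, against 30.9% of all genes). HRAS changed by -0.73 (adjusted p = 7.6e-04 in limma) and RRAS2, a RAS relative, rose by 1.14 (adjusted p = 0.00233). Median-ratio scaling added BRAF (0.63) and PEA15 (0.60), both higher. This gave 3 higher and 1 lower, beside 15.5% and 14.6% of all genes. Among adaptors, RAS exchange factors and RAS GTPase-activating proteins 1 of 15 rose and 4 fell. RASGRP3, an exchange factor that loads RAS with GTP, rose by 0.75. RASA3 (-0.87), RASA1 (-0.66) and RASAL1 (-0.51), which switch RAS off, fell, as did PTPN11 (-0.52), the phosphatase SHP2. RASAL1 and PTPN11 lay under the fold change threshold with median-ratio scaling (-0.42 and -0.40). Of 10 receptors and ligands, IGF1 rose by 1.10 and KIT (-1.05) and ERBB2 (-0.51) fell. These 3 were 30% of those tested, near the 30.9% of all genes. KIT and ERBB2 passed the filter only through their DMSO means, and ERBB2 was at -0.47 with median-ratio scaling.

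In PRMT1-KO 71 genes of the 5 lists were tested and 0 were called, against 0.781% of all genes. Their median log2 fold change was -0.02, against -0.04 over all genes. Between isgCtrl and DMSO 11 of 74 were called (14.9%), near the 13.9% of all genes. In isgCtrl 7 were higher and 4 lower, beside 7.23% and 6.7% of all genes. Under median-ratio scaling 7 were higher and 4 lower (9.46% and 5.41%), beside 5.3% and 7.44% of all genes. Higher in isgCtrl were EGR1 (1.56), DUSP2 (0.95), MYC (0.86), EPHA2 (0.81), FGFR1 (0.70), IER2 (0.67) and FOS (0.59). Lower were CCND1 (-0.98), RRAS (-0.85), RRAS2 (-0.84) and IGF1 (-0.73). CCND1 and RRAS2 passed the filter only through their DMSO means, so they could hardly have been called the other way. These 11 are all the list genes called there and were named after their values were seen.

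**Figure D3:**
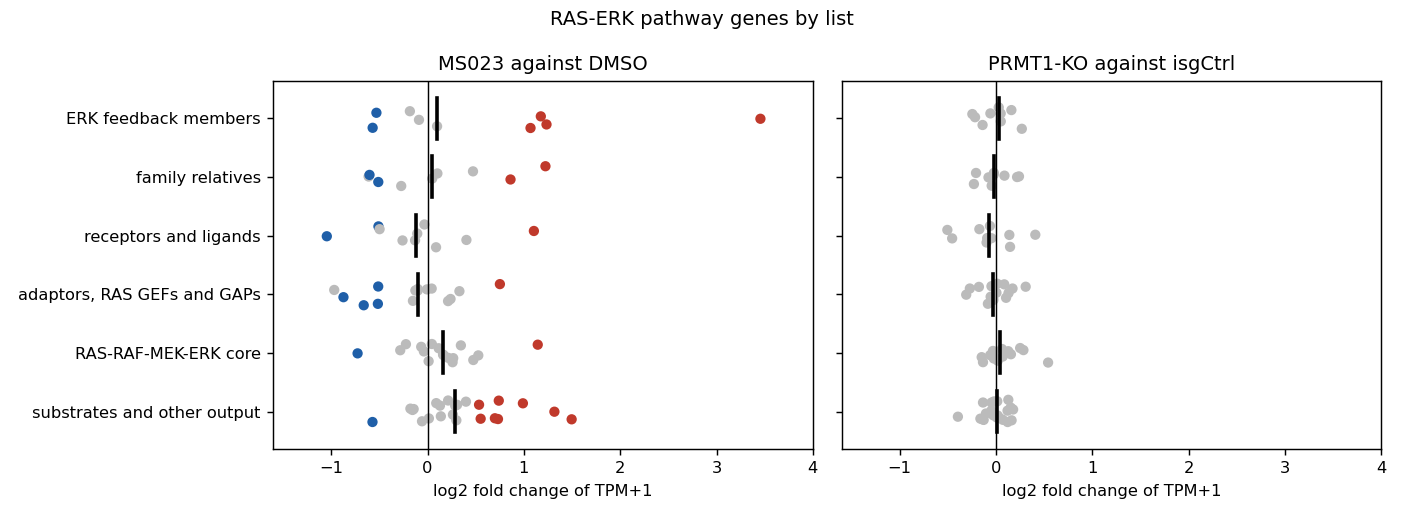
Log2 fold change of TPM+1 (x axis) of the tested genes of each RAS-ERK list (y axis), with MS023 (left) and in PRMT1-KO (right). Points are genes (red called higher, blue called lower, grey not called), spread vertically for visibility, and black bars are list medians. With MS023 the ERK feedback genes have DUSP5 at 3.46 far to the right, and in PRMT1-KO 0 genes are colored.

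Some reads could belong to neighbors of these genes, and the strand of the libraries is not given in the sources used here. DHX8 overlaps the span of ETV4 on the opposite strand and was at 11.65 to 14.45 TPM in the group means. SPRY4-AS1 overlaps that of SPRY4 on the opposite strand, at 0.071 to 1.11 TPM. DGKG overlaps that of ETV5 on the same strand, at 0.0345 to 1.06 TPM, where the library strand would not separate them. For any single gene, DUSP5 included, an exact two-sided permutation test of 3 samples against 3 could not go below p = 0.1.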

How the data were processed

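RNA sequencing of 12 JJN3 samples was deposited by the authors as one table of log2(TPM+1) per gene. Per the study's methods, reads were checked with FastQC, trimmed with Trimmomatic, aligned with STAR to hg38 with the GENCODE V35 annotation and quantified with Salmon, and versions are not given in the sources used here. TPM carry no record of sequencing depth, which is therefore unknown, and no count test was run.

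Groups followed the sample titles, and no sample was left out. Comparisons across all genes used limma 3.58.1 in R 4.3.3 without trend, on the 6 samples of each comparison or on all 12 for the difference of effects, with Benjamini-Hochberg adjustment over all genes tested. The 95% intervals are limma's. The filter was a group mean above 1, and the thresholds follow the study. With these, 3986 genes were called with MS023 and 96 in PRMT1-KO. The study reports far fewer genes for MS023 and nearly the same number for PRMT1-KO. The reason for the gap was not tested. Alternatives were quantile normalization, median-ratio scaling, other filters, a trended prior, a pseudocount of 0.1, the replicate block, a common fit, other fold thresholds and leaving out each replicate. The code was tested on simulated data.

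Named were all members, called genes of the pathway lists (at most 5 per list for MS023) and the nearest profiles. The members and lists were chosen with earlier results of these data known. Positions come from GENCODE v44 on GRCh38.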

Additional observations from a re-analysis of the deposited data

Results flagged for a closer look

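For 5 ERK feedback genes the response to MS023 differed from the response to the PRMT1 guide in the test of the difference itself (limma on 12 samples with Benjamini-Hochberg adjustment). The difference, MS023 less PRMT1-KO on the log2 scale, was 3.19 for DUSP5, 1.32 for PHLDA1, 1.21 for SPRED1, 0.91 for DUSP4 and -0.58 for SPRY2. The contrasts come from different control cells, and DUSP5 in isgCtrl differed from DMSO by -0.77.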

How the results depend on the processing

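Over 547 alternative values of single members, 510 kept their direction and their side of the thresholds, 23 lost a call, 1 gained one and 13 turned sign. DUSP4, DUSP5, SPRED1 and PHLDA1 stayed called with MS023 in every alternative run. Quantile normalization also put SPRY2 (-0.42) and ETV4 (-0.47) with MS023 under the fold change threshold, and with all genes above 0 fitted ETV4 had an adjusted p of 0.0698 and the SPRY2 difference of effects 0.0509 in limma. Called members were 4 to 6 with MS023, 0 in PRMT1-KO, 3 to 4 in isgCtrl against DMSO and 4 to 6 for the difference of effects when 1 replicate was left out. At an absolute log2 fold change above 1 the pathway genes called with MS023 were 6, the members called in isgCtrl against DMSO were 0 and those that differed between effects were 3. Signs turned only for changes that were not called. Leaving out 1 replicate gave -0.067 to 0.25 for DUSP6 with MS023, and in PRMT1-KO -0.032 to 0.16 for SPRY2, -0.028 to 0.14 for SPRY4, -0.079 to 0.092 for SPRED1 and -0.19 to 0.087 for SPRED2. It gave -0.053 to 0.089 for PHLDA1 in isgCtrl against DMSO, which was -0.035 under median-ratio scaling, and -0.27 to 0.0028 for the SPRED2 difference of effects. With the replicate number as a block 5 members were called with MS023, without ETV4, 0 in PRMT1-KO and 3 in isgCtrl against DMSO, without DUSP6, and the block changed no other call of a member. Same-numbered samples had correlations of deviations from -0.142 to 0.102, so the number was not taken as a pairing. Without depth, counting error could not be given, and genes near 1 TPM, such as SPRY4 and ETV5, are the least certain.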
